A study of Homo sapiens with 12 samples.

Results

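PRRC2A, PRRC2B and PRRC2C are the paralogs of the PRRC2 (proline-rich coiled-coil 2) family, and their transcripts are described here in cells in which PRRC2B was knocked down. The members were the 3 rows of the count table that carry these names, out of 59385 gene names in all, and all 3 passed the filter on low counts, as did 18166 gene names of the table. The libraries came from HEK293T, a line derived from human embryonic kidney, carrying a Dox-inducible shRNA. The shRNA of the shCtrl line has no target, that of the shPRRC2B line is directed at PRRC2B, and both lines received Dox for 36 h. From each line, total RNA and polysome RNA (RNA pooled from sucrose gradient fractions 6 to 10, where an mRNA carries more than 2 ribosomes) were sequenced as biological triplicates, so that 12 libraries fell into 4 groups of 3. Each line was grown from a single clone and 1 shRNA was used, so an effect of the shRNA and a difference between the clones cannot be told apart. All values are RNA levels in bulk cultures, in which fewer cells and less RNA per cell cannot be told apart either.

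PRRC2 proteins are large, mostly disordered proteins without a classical RNA recognition domain that bind mRNA in the cytoplasm. They have been found with eIF3, with eIF4G proteins, above all eIF4G2, and with the FXR proteins and stress granule proteins, and they take part in the initiation of translation. PRRC2A has also been described as a reader of N6-methyladenosine in mRNA, and PRRC2C as a factor that stress granules need to form. Translation efficiency (TE) is used here for the level of an mRNA in polysome RNA relative to its level in total RNA.

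The genes lie on different chromosomes of GRCh38, all on the plus strand. PRRC2A (ENSG00000204469.13, chr6:31620715-31637771) lies in the major histocompatibility complex, and its canonical GENCODE 44 transcript has 31 exons and 6903 nt, of which 6471 nt are coding sequence (CDS). PRRC2B (ENSG00000288701.1, chr9:131373636-131500197) has 32 exons and 11238 nt, with a CDS of 6687 nt and a 3′ UTR of 4322 nt including the stop codon. PRRC2C (ENSG00000117523.18, chr1:171485530-171593511) has 35 exons and 10624 nt, with the longest CDS of the family at 8694 nt. The GC content of the transcripts differed as well, at 61.7% for PRRC2A, 56.9% for PRRC2B and 45.5% for PRRC2C. No stretch of 50 nt is shared between the canonical transcripts of any pair of the paralogs, so a read of that length cannot come from more than one of them. Of such stretches, 5.65% in PRRC2A, 3.76% in PRRC2B and 0% in PRRC2C also occur in transcripts of other annotated genes.

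The 5′ ends of these transcripts are shown because the study described both CU-rich and GA-rich elements as sequences that PRRC2B binds, in UTRs as well as in the CDS. These ends are not close to the start codon, since the 5′ UTRs have 244 nt in PRRC2A, 229 nt in PRRC2B and 263 nt in PRRC2C. The first 30 nt of each canonical transcript, with the longest run of C and T in capitals, read as follows in GRCh38, plus strand.
PRRC2A, chr6:31620715-31620744: agtcggggCTCagccgcggagtgagcgagg
PRRC2B, chr9:131394086-131394115: gagacaggcgccgaggCTCCaccgcgcagc
PRRC2C, chr1:171485530-171485559: gccatcttgCTTCTTTTTCTCgctcgctcg
PRRC2C held 24 C or T among these 30 bases with a run of 12, against 10 with a run of 3 in PRRC2A and 13 with a run of 4 in PRRC2B. None of them opened with a 5′ terminal oligopyrimidine motif, searched at the RefSeq starts (GRCh38.p14) as a C followed by at least 4 C or T on the gene's own strand, which 4.07% of 35116 promoters held. Runs of G and A were not marked in these ends, so the counts do not compare the paralogs for GA-rich sequence. These are matches of letters only, and no binding was measured here.

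PRRC2C also carries a site that the study's tables list from PAR-CLIP, a crosslinking method that marks where a protein touches RNA, in cells that overexpressed FLAG-tagged full-length PRRC2B. The site is shown because it lies in the transcript with the largest TE change of the family. It covers 100 nt of the CDS in exon 12, starting at CDS position 1381, and its longest run of G and A is in capitals.
PRRC2C site, chr1:171532469-171532568, plus strand: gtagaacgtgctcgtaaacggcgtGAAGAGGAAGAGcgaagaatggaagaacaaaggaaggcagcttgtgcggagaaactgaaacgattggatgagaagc
Of its 100 bases 74 were G or A. A site listed for the P2 fragment of PRRC2B shares 90 nt with it. Only sites listed for PRRC2C were taken up, and whether the study lists any in PRRC2A was not examined. PRRC2B's own sites were not counted, since its mRNA was also made from the overexpressed construct.

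The libraries held between 9855734 and 20837542 counts. The HEK293T markers NEFL, NEFM, INA, VIM and PAX2 were detected in every library, while LHX1 was at 0 in 6 of 12, and the markers were higher in sum in shCtrl than in shPRRC2B total RNA (593 to 658 against 432 to 461 CPM). The markers of other lineages summed to between 0 and 2.01 CPM, with HBB and UMOD among those at 0 in all 12 libraries, while others were detected at low levels. In total RNA their sum was lower in shCtrl (0.33 to 0.90 CPM) than in shPRRC2B cells (1.87 to 2.01 CPM). The part of these markers in the results was not tested. Levels are given as CPM, counts relative to library sizes that were scaled by the TMM method, and calls needed both an adjusted p under 0.05 and a log2 value beyond 0.5 in either direction, the thresholds of the study.

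PRRC2B mRNA, the target of the shRNA, was lower in shPRRC2B cells in both kinds of RNA. In total RNA it measured 272, 313 and 258 CPM in shCtrl replicates 1 to 3, and 97.9, 102.5 and 100.5 CPM in shPRRC2B cells. All shPRRC2B values lay below all shCtrl values, as they did for 28.8% of genes tested in total RNA. The mean fell from 281 ± 28.7 to 100.3 ± 2.32 CPM (SD, n = 3), which left 35.7% of the shCtrl level. The log2 change was −1.49 (standard error 0.17, 95% confidence interval −1.84 to −1.14, edgeR quasi-likelihood test with Benjamini-Hochberg adjustment, adjusted p = 4.25e-06). Of all genes tested, 14.1% were called lower in total RNA and 4.66% had a lower log2 change than PRRC2B.

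In polysome RNA, PRRC2B measured 12.9, 18.3 and 21.1 CPM in shCtrl cells and 9.03, 6.50 and 5.14 CPM in shPRRC2B cells. The shPRRC2B values again all lay below the shCtrl values, as they did for 21.5% of genes tested in polysome RNA. The counts behind these values were low, at 138 to 190 in shCtrl and 54 to 105 in shPRRC2B libraries. The mean fell from 17.4 ± 4.15 to 6.89 ± 1.97 CPM (SD, n = 3), to 39.5% of the shCtrl level (log2 change −1.33, standard error 0.20, edgeR adjusted p = 5.03e-05). Once the trend of counts on transcript length had been taken out of each library, this change was smaller, at −0.73 (edgeR adjusted p = 0.00415), and still called. PRRC2B was thus called lower in both fractions, and its TE was not called changed. The log2 TE change was 0.16 (standard error 0.26, edgeR adjusted p = 0.694) with a 95% confidence interval of −0.39 to 0.71, which reaches past the calling threshold on the upper side. Its sign also turned without shCtrl polysome replicate 1 (−0.06) or without shPRRC2B polysome replicate 1 (−0.15).

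PRRC2C mRNA was not called changed in total RNA but was much lower in polysome RNA. In total RNA it measured 375, 344 and 359 CPM in shCtrl cells and 309.7, 323 and 347 CPM in shPRRC2B cells. The ranges overlapped, and the log2 change of −0.14 (standard error 0.16, 95% confidence interval −0.48 to 0.20) did not pass the test (edgeR adjusted p = 0.542). With total RNA fitted alone the change was −0.18 (standard error 0.06, edgeR adjusted p = 0.0167). That passed the p threshold but not the log2 threshold, so a small fall remains possible. In polysome RNA it measured 36.6, 50.02 and 66.7 CPM in shCtrl cells and 6.88, 6.69 and 5.14 CPM in shPRRC2B cells. Every shPRRC2B polysome value was less than the lowest shCtrl value by a wide margin, from 391 to 601 counts down to 54 to 80. Such a separation, of any margin, was shown by 21.5% of genes tested in polysome RNA.

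The mean polysome level of PRRC2C fell from 51.1 ± 15.1 to 6.23 ± 0.955 CPM (SD, n = 3), 8.20-fold lower (log2 change −3.03, standard error 0.20, edgeR adjusted p = 7.79e-09). Of genes tested 21.4% were called lower in polysome RNA (18.4% higher), and 2.20% had a lower value than PRRC2C. The log2 TE change was −2.89 (standard error 0.25, 95% confidence interval −3.43 to −2.36, edgeR adjusted p = 6.08e-06), a TE-down call that 16.4% of genes tested shared. The TE change of PRRC2C was among the lowest of the table, since 1.71% of genes tested had a lower one.

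PRRC2A, the least abundant paralog, moved in the same way to a smaller extent. Its total RNA measured 39.2, 43.96 and 42.7 CPM in shCtrl cells and 45.3, 47.0 and 37.6 CPM in shPRRC2B cells, so that the shPRRC2B values lay on both sides of the shCtrl range. The log2 change in total RNA was 0.05 (standard error 0.20, 95% confidence interval −0.38 to 0.47, edgeR adjusted p = 0.884), and its sign turned under other scalings and with single libraries left out (−0.01 to 0.14). In polysome RNA it measured 16.9, 9.98 and 18.3 CPM in shCtrl cells and 5.85, 4.87 and 2.57 CPM in shPRRC2B cells. These groups did not overlap, although shCtrl replicate 2 stood closer to the shPRRC2B libraries than the other shCtrl replicates did.

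The mean polysome level of PRRC2A fell from 15.0 ± 4.45 to 4.43 ± 1.68 CPM (SD, n = 3), 3.40-fold lower (log2 change −1.76, standard error 0.26, edgeR adjusted p = 3.37e-05). The log2 TE change was −1.80 (standard error 0.33, 95% confidence interval −2.49 to −1.11, edgeR adjusted p = 7.43e-04), and 4.90% of genes tested had a lower one. This value rests on the smallest counts of the family, 27 to 68 in the shPRRC2B polysome libraries. For 3 values against 3, all shPRRC2B values below all shCtrl values is a pattern that 21.5% of genes tested showed in polysome RNA and 28.8% in total RNA.

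**Figure D1:**
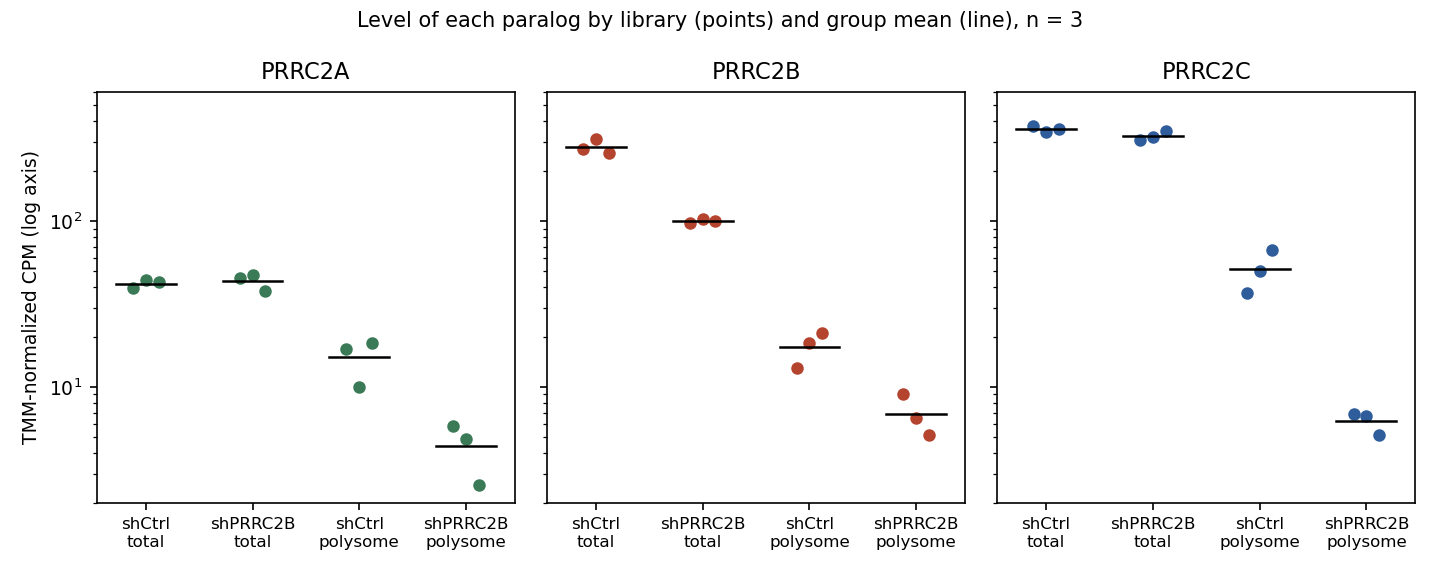
TMM-normalized CPM (log axis) of PRRC2A, PRRC2B and PRRC2C in the 12 libraries, with points for the replicates in order 1 to 3 and a line for the group mean. In total RNA only PRRC2B separates the lines, from 281 to 100.3 CPM on average, whereas in polysome RNA the shPRRC2B points of every paralog lie below the shCtrl points. That pattern was shown by 21.5% of genes tested in polysome RNA.

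**Figure D2:**
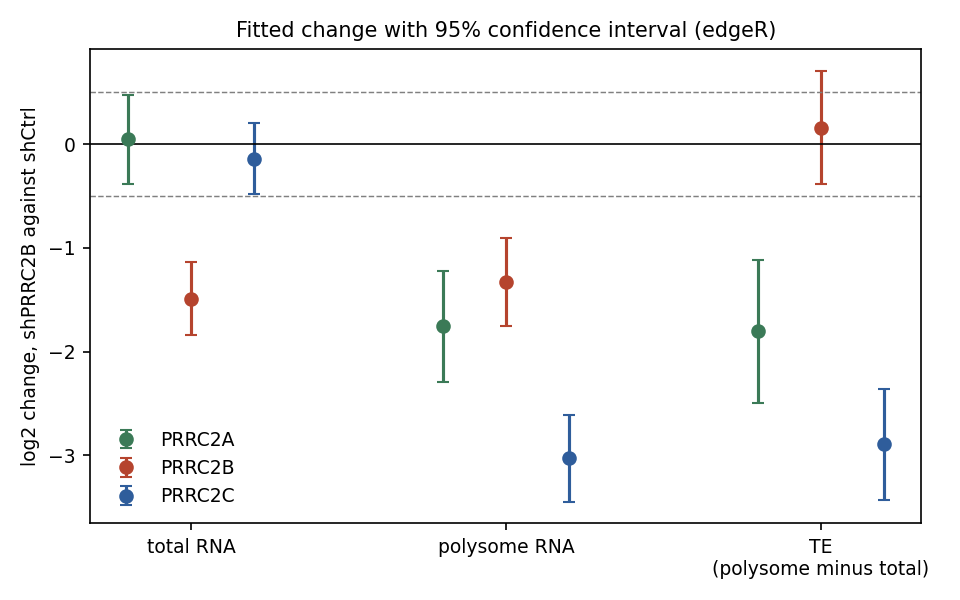
Fitted log2 change between shPRRC2B and shCtrl cells in total RNA and in polysome RNA, and the TE change, for each paralog, where points are estimates, bars 95% confidence intervals and dashed lines the calling threshold of 0.5 in either direction. The intervals of PRRC2A and PRRC2C include 0 in total RNA and lie below −0.5 for polysome RNA and TE, while that of PRRC2B includes 0 for TE alone.

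Before the knockdown comparison, the polysome level relative to the total level already differed among the paralogs. In shCtrl cells the mean polysome level was 35.9% of the mean total level for PRRC2A, 14.2% for PRRC2C and 6.20% for PRRC2B, all in CPM. Pairing any polysome library with any total library gave 22.7 to 46.6% for PRRC2A, 9.75 to 19.4% for PRRC2C and 4.12 to 8.16% for PRRC2B, so the ranges of the paralogs did not overlap. On the log2 scale the polysome-to-total ratios were −1.48 (standard error 0.22) for PRRC2A, −2.82 (standard error 0.18) for PRRC2C and −4.02 (standard error 0.19) for PRRC2B, each called lower by the edgeR test (adjusted p = 8.60e-06, 1.12e-10 and 3.94e-12), as were 39.8% of genes tested. All of them were under the median of all genes, −0.22. Beside the 2657 genes with transcripts over 6000 nt, whose median was −1.72, PRRC2A was above the median and PRRC2C and PRRC2B below it, and 56.8%, 17.0% and 2.33% of those genes had a lower ratio than PRRC2A, PRRC2C and PRRC2B.

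In shPRRC2B cells this order changed. PRRC2A stood at 10.2%, PRRC2B at 6.87% and PRRC2C at 1.91%, so that PRRC2C moved from the middle of the family to the bottom. The pairings of single libraries ranged from 5.46 to 15.6% for PRRC2A and from 5.01 to 9.22% for PRRC2B, which overlap, and from 1.48 to 2.22% for PRRC2C, which lies apart from both. The log2 polysome-to-total ratios were −3.28 (standard error 0.25), −3.86 (standard error 0.20) and −5.71 (standard error 0.21) for PRRC2A, PRRC2B and PRRC2C (edgeR adjusted p = 7.95e-10, 4.02e-12 and 1.29e-13), where 42.3% of genes tested were called lower.

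These ratios are relative to the other genes, since each library is scaled to its own total. With library totals alone as the scale, the median log2 ratio of all genes moved from −0.22 to −1.22 in shCtrl cells and from −0.22 to −1.16 in shPRRC2B cells, and the calls shifted from 5906 higher and 7222 lower to 3211 and 10675 in shCtrl cells. In shPRRC2B cells they shifted from 6655 and 7676 to 4283 and 10204. The order of the paralogs within a line does not depend on that scale, which multiplies every gene of a library alike.

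Levels between genes were compared per kb of canonical transcript. In total RNA of shCtrl cells PRRC2C stood at 33.8 ± 1.47 CPM per kb, PRRC2B at 25.02 ± 2.55 and PRRC2A at 6.08 ± 0.354 (SD, n = 3), with no overlap between neighbours. The first of these gaps depends on the length used for PRRC2B. Other annotated genes overlap 3232 nt (28.8%) of its exons, of which 2713 nt are covered by an antisense lncRNA (ENSG00000176868, chr9:131497479-131500191, minus strand). The counting options in the methods leave out read pairs that fall on more than 1 gene and state no strand setting, so pairs from PRRC2B and its antisense partner cannot be told apart there. Without the overlapped bases PRRC2B stood at 35.1 ± 3.59 CPM per kb (SD, n = 3), and its range included the level of PRRC2C. The overlapped share was 7.0% for PRRC2A and 0 for PRRC2C.

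In shPRRC2B total RNA the order was PRRC2C at 30.8 ± 1.79, PRRC2B at 8.92 ± 0.206 and PRRC2A at 6.27 ± 0.728 CPM per kb (SD, n = 3), again without overlap. In shCtrl polysome RNA PRRC2C stood at 4.81 ± 1.42, PRRC2A at 2.18 ± 0.644 and PRRC2B at 1.55 ± 0.369 CPM per kb (SD, n = 3), and the ranges of PRRC2A and PRRC2B overlapped. In shPRRC2B polysome RNA the paralogs were level within their spread on the full canonical length, at 0.642 ± 0.244 for PRRC2A, 0.613 ± 0.176 for PRRC2B and 0.587 ± 0.0899 CPM per kb for PRRC2C (SD, n = 3). Without the overlapped bases PRRC2A stood at 0.690 ± 0.262 and PRRC2B at 0.860 ± 0.247 (SD, n = 3). The range of PRRC2B (0.642 to 1.13) then overlapped that of PRRC2C (0.484 to 0.647) only narrowly.

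Summed over the paralogs, the family stood at 65.2, 66.7 and 63.0 CPM per kb in shCtrl total RNA and at 44.4, 46.4 and 47.1 in shPRRC2B total RNA. The sums did not overlap, and 70.8% of the shCtrl mean was left (exact two-sided permutation test, p = 0.1, the smallest that 3 against 3 allows). In polysome RNA the sum was 7.04, 7.79 and 10.8 CPM per kb in shCtrl cells and 2.30, 1.91 and 1.31 in shPRRC2B cells, which left 21.6% (exact permutation p = 0.1). PRRC2C averaged 52.2% of the sum in shCtrl total RNA and 66.9% in shPRRC2B total RNA, but 55.8% in shCtrl polysome RNA and 32.6% in shPRRC2B polysome RNA. The share of PRRC2B was 38.5% in shCtrl and 19.4% in shPRRC2B total RNA, and its share of the polysome sum was 18.2% in shCtrl and 33.3% in shPRRC2B cells. These sums and shares used the full canonical length of each transcript. Without the overlapped bases, PRRC2B stood at 35.1 and PRRC2C at 33.8 CPM per kb in shCtrl total RNA. Which paralog had the largest share there thus depends on the length used.

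**Figure D3:**
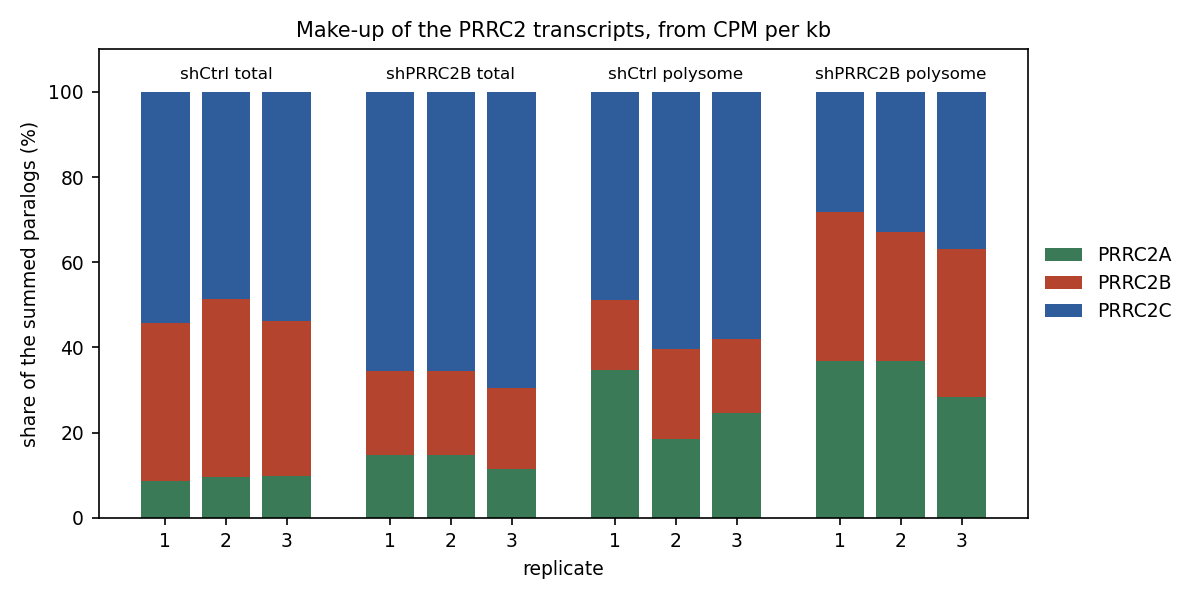
Share (%) of PRRC2A, PRRC2B and PRRC2C in the summed CPM per kb of the family, 1 bar for each library, in 4 groups of 3 replicates. Shares rest on full canonical lengths and shift when the overlapped bases of PRRC2B are left out. The PRRC2B share of the shPRRC2B libraries is below that of the shCtrl libraries in total RNA and above it in polysome RNA, where PRRC2A, PRRC2B and PRRC2C average 34.0%, 33.3% and 32.6% in shPRRC2B cells.

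The ratio of counts between a pair of paralogs in the same library needs no scaling of library sizes and compares the paralogs directly. PRRC2B over PRRC2C was 0.725, 0.910 and 0.719 in shCtrl total RNA and 0.316, 0.317 and 0.289 in shPRRC2B total RNA, a log2 difference of −1.34. In polysome RNA the same ratio went the other way, from 0.353, 0.367 and 0.316 in shCtrl cells to 1.31, 0.971 and 1.00 in shPRRC2B cells, a log2 difference of 1.65. Neither comparison overlapped, and both had the smallest p that 3 against 3 allows (exact two-sided permutation test, p = 0.1, 0.15 after adjustment over 6 ratio tests), so the design could not take them under 0.05.

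PRRC2A over PRRC2C was 0.460, 0.1996 and 0.275 in shCtrl polysome RNA and 0.85, 0.729 and 0.50 in shPRRC2B polysome RNA. The groups did not overlap, and the fall of PRRC2C was larger than that of PRRC2A by 1.21 on the log2 scale (exact permutation p = 0.1, adjusted 0.15). In total RNA the ratio of PRRC2A to PRRC2C overlapped between the lines (log2 difference 0.18, exact permutation p = 0.3, adjusted 0.36). PRRC2A over PRRC2B differed by 1.52 in total RNA without overlap (exact permutation p = 0.1, adjusted 0.15), and by −0.45 in polysome RNA with overlap (exact permutation p = 0.4, adjusted 0.4).

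All 3 transcripts are long, and TE changed with transcript length across the table. Of genes tested, 15762 (86.8%) had a canonical length, and the median log2 TE change was −0.69 over the 2657 with more than 6000 nt, against −0.03 over all genes tested. In that long class 43% of genes were called TE-down, 3.46% TE-up and 43.7% lower in polysome RNA. Of all genes tested 27.1% had a TE call. The long class had a median of 0.21 in total RNA and −0.52 in polysome RNA. These values are the background for the paralogs.

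Among the long transcripts, 24 (0.903%) had a lower TE change than PRRC2C and 8.66% a lower one than PRRC2A. PRRC2B stood near the other end, with 82.3% below it. When the trend of counts on transcript length was removed from each library, the log2 TE change was −1.20 for PRRC2A and −2.09 for PRRC2C, and both were still called. PRRC2B was then called TE-up at 0.97 (edgeR adjusted p = 0.00844), as 10.7% of genes tested were without that step. Over all genes the step turned 1935 TE-up and 2981 TE-down calls into 1971 and 1759. The same step took the polysome-to-total ratio in shCtrl cells from −1.48 to −0.01 for PRRC2A, from −2.82 to −0.97 for PRRC2C and from −4.02 to −2.12 for PRRC2B. In shPRRC2B cells the ratios were then −1.21 for PRRC2A, −1.15 for PRRC2B and −3.06 for PRRC2C, so that PRRC2C was again the lowest there. The part of length in the paralogs' changes was not tested beyond this.

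**Figure D4:**
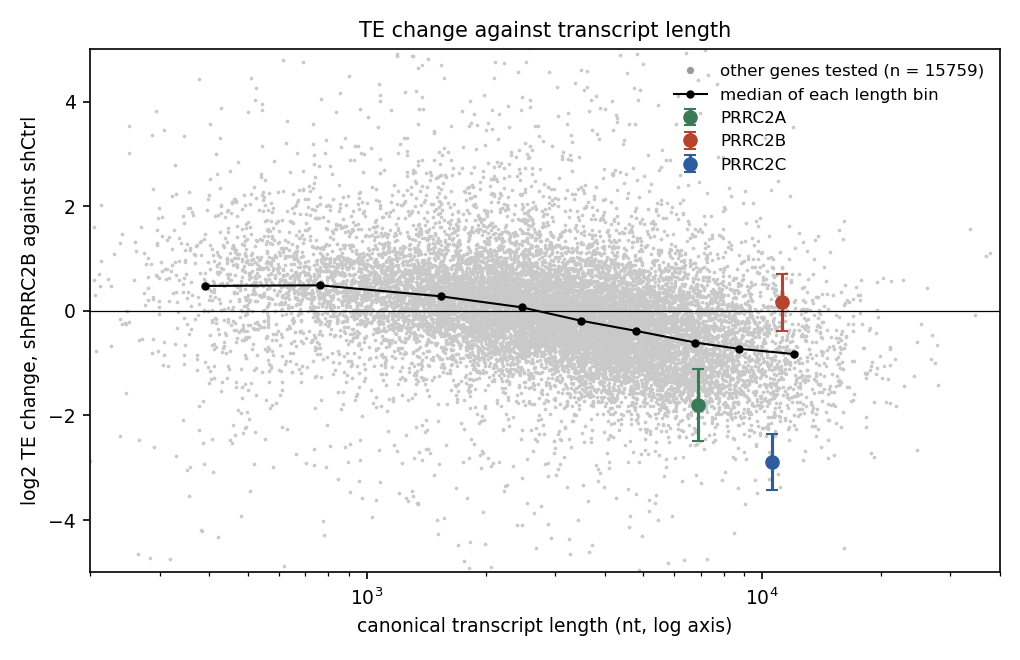
Log2 TE change against canonical transcript length (nt, log axis) for 15759 other genes tested in grey, of which 149 lie outside the axes, with the median of each length bin as a black line and the paralogs in colour with 95% confidence intervals. PRRC2C (−2.89) and PRRC2A (−1.80) lie below the medians at their length and PRRC2B (0.16) above.

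Genes whose products work with the PRRC2 proteins were followed as lists, read beside the 16.4% of all genes tested that were TE-down. Of 14 eIF3 subunit genes, which build the large scaffold of the initiating ribosome, 6 were TE-down and none TE-up (median log2 TE change −0.67), and none was called in total RNA (median 0.18). EIF3A, its largest subunit, had the lowest value at −1.42 (standard error 0.19, edgeR adjusted p = 7.81e-05). EIF3CL had the highest at 1.32 (standard error 1.36, adjusted p = 0.506), a value with a wide error. EIF3CL is known as a near-identical copy of EIF3C, and how the counting divided reads between them was not tested. With the length trend removed, 7 of the 14 eIF3 genes were TE-down.

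Of the 3 genes of the eIF4G family, 1 was TE-down and all 3 were called higher in total RNA (median log2 change 0.80), where 14.9% of genes tested were. For EIF4G1, the scaffold of the cap-binding complex, the log2 TE change was −1.35 (standard error 0.20, edgeR adjusted p = 1.73e-04). EIF4G2, the non-canonical member that lacks the binding site for the cap-binding protein, rose in total RNA by 0.71 (edgeR adjusted p = 0.00563), and its TE change of −0.36 (standard error 0.25, adjusted p = 0.306) did not pass. EIF4G3, the closest relative of EIF4G1, stood at 0.03 (adjusted p = 0.952) and was called TE-up (0.60, adjusted p = 0.0393) with the length trend removed.

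Of 14 genes of granule and FXR proteins 11 were TE-down and none TE-up (median −0.86), while 3 were called higher in total RNA (median 0.19). CAPRIN1, which binds the stress granule proteins G3BP1 and G3BP2, had the lowest log2 TE change at −1.52 (standard error 0.30, edgeR adjusted p = 0.00122). FXR1, a relative of the fragile X protein, was TE-down at −0.85 (standard error 0.23, adjusted p = 0.0101), whereas its paralog FXR2 stood at 0.03 (adjusted p = 0.966). With the length trend removed, 5 of the 14 were TE-down, namely G3BP2, CAPRIN1, UBAP2, ATXN2 and NUFIP2 (named after their values were seen), and FXR1 stood at −0.14 (edgeR adjusted p = 0.717). Of 10 genes of N6-methyladenosine readers 7 were TE-down and none TE-up (median −0.95), from IGF2BP3 at −1.71 (standard error 0.37, edgeR adjusted p = 0.00243), which binds and stabilizes mRNA, to HNRNPA2B1, a nuclear RNA-binding protein, at −0.24 (adjusted p = 0.547). Of these 10 readers 3 were called higher in total RNA (median log2 change 0.32), and 6 were TE-down with the length trend removed. These counts were not tested against other genes.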

How the data were processed

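Total and polysome RNA of the shCtrl and shPRRC2B lines was sequenced by the authors from poly(A)-enriched libraries. The authors deposited raw counts of read pairs per gene name, without normalization. Per the submitters' processing notes, Trimmomatic 0.36 trimmed the reads, HISAT2 2.1.0 aligned them to GRCh38 and featureCounts (Subread 2.0.1) counted pairs. The study's methods give a different HISAT2 version and name GENCODE 38. Groups came from the sample labels.

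The analysis ran in R 4.3.3 and used edgeR 4.0.16 (filterByExpr, minimum count 10; TMM over 12 libraries; quasi-likelihood fit of the 4 groups, no block). Benjamini-Hochberg adjustment covered all tested genes, and p-values reflect the spread between biological replicates pooled over both fractions. Polysome replicates differed more than total ones. With polysome RNA fitted alone, standard errors for PRRC2A, PRRC2B and PRRC2C were 0.33, 0.28 and 0.25, larger than in the joint fit, and all polysome calls held. With total RNA fitted alone they were 0.08, 0.07 and 0.06, smaller than in the joint fit. The TE change is the interaction of line and fraction. Ratios and sums of paralogs were tested by exact permutation. Lengths, positions and sequences were those of GENCODE 44 canonical transcripts and RefSeq promoters on GRCh38, and the counts used GENCODE 38. Pearson correlations used log2 CPM with a prior count of 2.

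The alternatives were DESeq2 1.42.0, RLE size factors, total counts, TMM within each fraction, 2 other count filters, limma 3.58.1 on log2(CPM + 1), 2 replicate blocks, removal of the trend on length (lowess span 0.3) with and without the block, 1 fraction alone, no minimum log2 change, and each library left out. Genes named were the paralogs, the 3 genes most like each, EIF4G2, FXR1, and the highest and lowest TE change of each list. The paralogs and lists were chosen with earlier results of these data known. The level of 1 marker gene is not reported here. The fit was tested on simulated data. No duplicate libraries were found, and 0 columns belonged to no library.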

Additional observations from a re-analysis of the deposited data

Results flagged for a closer look

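The change between the lines differed between the fractions for 2 of the paralogs, by the interaction term of the edgeR fit. PRRC2C changed by −2.89 more on the log2 scale in polysome RNA than in total RNA (adjusted p = 6.08e-06), and its 3 polysome values in shPRRC2B cells were all below the 3 in shCtrl cells. PRRC2A changed by −1.80 more in polysome RNA than in total RNA (edgeR adjusted p = 7.43e-04), likewise with all 3 polysome values lower. That pattern of 3 values below 3 was shown by 21.5% of genes tested in polysome RNA. No paralog had a group of 4 or more libraries, so single libraries were not tested for standing apart.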

How the results depend on the processing

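The TE-down calls of PRRC2A (−1.85 to −1.20) and PRRC2C (−2.93 to −2.07) held under all 11 other settings and without any single library (−2.13 to −1.57 and −3.12 to −2.71). The total RNA change of PRRC2A, never called, turned negative with total counts only (−0.030), with TMM within each fraction (−0.00040), and with the length trend removed, alone (−0.12) or with the replicate block (−0.13), and ranged from −0.014 to 0.14 without single libraries. The TE change of PRRC2B was called at 0.97 with the length trend removed and at 0.97 with the block as well, and ranged from −0.15 to 0.30 without single libraries. The polysome-to-total ratio of PRRC2A in shCtrl cells was no longer called with the length trend removed (−0.0086, and −0.016 with the block). With that trend removed 1 eIF4G gene was TE-up and 5 granule and FXR genes TE-down, and 1 to 2 eIF4G genes were TE-down without single libraries (2 without shPRRC2B polysome replicate 1). The log2 change of the summed paralogs in total RNA moved from −0.50 to −0.55 with the length of all exons, −0.57 with total counts and −0.59 without overlapped bases, the last chosen after seeing the data. By Spearman's rho, 0, 1 and 0 of the 3 genes most like PRRC2A, PRRC2B and PRRC2C were kept. The cause of these shifts was not tested.

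Deviations of same-numbered replicates were hardly correlated (correlations from −0.06 to 0.05). This cannot decide whether a number marks a shared culture, since polysome replicates differed far more than total ones, and the labels do not say. The replicate block changed no call of the paralogs, with TE changes of −1.81, 0.16 and −2.86 for PRRC2A, PRRC2B and PRRC2C. Of 324 values recomputed without single libraries 313 were rated the same, as were 198 of 214 under the other settings. For fitted changes this meant the same direction and call, and for list counts a number of similar size, which can hide changed calls. Sums and paralog ratios had to keep their sign and stay within the SD of the replicates. Ratios paired by replicate number keep their mean difference by construction and were counted as the same. Polysome counts of 27 to 105 in shPRRC2B cells limit the precision for every paralog.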

Other observations

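The genes whose log2 CPM over the 12 libraries followed each paralog most closely, among 10050 genes that averaged 10 CPM or more, differed among the paralogs. PRRC2A was followed by SOCS5, a suppressor of cytokine signalling (Pearson r = 0.992), by RB1, the retinoblastoma tumour suppressor (r = 0.990), and by SYNCRIP, an RNA-binding protein (r = 0.990). Their log2 TE changes were −0.98, −1.58 and −1.55, beside −1.80 for PRRC2A. PRRC2C was followed by PBRM1, a chromatin remodelling subunit (r = 0.998), by SLC38A1, an amino acid transporter (r = 0.997), and by ADGRL2, an adhesion receptor (r = 0.997), with log2 TE changes of −1.58, −1.55 and −1.27 beside −2.89.

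PRRC2B was followed by IQSEC1, an exchange factor for ARF GTPases (r = 0.996), by NUP62, a nuclear pore protein (r = 0.994), and by ZNF362, a zinc finger protein (r = 0.993). These genes had log2 changes of −0.71, −0.55 and −0.57 in total RNA and −0.80, −0.62 and −0.68 in polysome RNA, the same direction in both fractions as PRRC2B. Choosing genes by correlation over these same libraries favours such a shared direction. Among the paralogs themselves r was 0.976 between PRRC2A and PRRC2C, 0.948 between PRRC2B and PRRC2C and 0.919 between PRRC2A and PRRC2B. In the order of all 10050 genes PRRC2C ranked 113 for PRRC2A and 896 for PRRC2B, and PRRC2B ranked 1714 for PRRC2A. Genes with r above 0.95 numbered 769 for PRRC2A, 808 for PRRC2B and 1303 for PRRC2C (7.65%, 8.04% and 13.0%). These are descriptions, and the 12 libraries share the large difference between total and polysome RNA.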
